A study of Mus musculus with 4 samples.

Results

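The mitotic spindle and kinetochore genes described here were 44 genes chosen by symbol, whose products condense chromosomes, attach them to the spindle, check that attachment, separate the sister chromatids and divide the cell. All 44 were found among the 23552 genes of the expression table, and all 44 passed the filter on low values, a mean FPKM (fragments counted per gene, scaled to transcript length and sequencing depth) of at least 0.5, that left 13736 genes for testing. The rule that chose them used no measured value. Expression was measured by RNA-Seq in c-Kit+ cells enriched from the bone marrow of moribund mice with acute myeloid leukemia (AML) driven by MLL-AF9 (MA9), a fusion oncogene that every library carried. The labels give the strain as C57BL/6 and the study's methods as C57BL/6J. MA9 leukemia cells, already passaged through serial recipients, had received lentivirus with Suv39h1 and eGFP (SUV-OE) or with eGFP alone (control). The sorted eGFP+ cells had been transplanted into sublethally irradiated female recipients that were 8 weeks old. By the paper's account of its passages, RNA-Seq used leukemia cells taken from secondary recipients. Each group had 2 libraries, control replicates 3 and 4 and SUV-OE replicates 2 and 3, all of RNA-seq batch 2. The residual marrow cells of the irradiated host can be in the enriched fraction. Nothing stated that the libraries of a group came from separate mice, so p-values measured only the spread between these samples. Suv39h1 encodes a methyltransferase that places H3K9me3, a mark of silent and pericentromeric chromatin.

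In a dividing cell, the centromere protein CENP-A marks where the inner kinetochore assembles, and the NDC80 complex of the outer kinetochore binds microtubules. The spindle assembly checkpoint keeps CDC20 from activating the anaphase-promoting complex until every chromosome is attached. Activation then removes securin and frees separase, which opens the cohesin rings that hold sister chromatids. Most of these genes are transcribed in G2 and M phase, under the B-MYB, FOXM1 and MuvB proteins. MuvB binds the cell cycle genes homology region (CHR, letters TTTGAA), often near CCAAT boxes bound by NF-Y. The abundance of these RNAs in a bulk sample can therefore follow how many cells are cycling, and in bulk samples fewer cells of a type and less RNA per cell cannot be told apart.

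Because these motifs are known from promoters of G2 and M phase genes, the 250 bases before the annotated start are shown for 6 of the 44, chosen after their values were seen. Cdc20, Plk1 and Cenpn had lower means in SUV-OE, Mki67 and Cenpe had higher ones, and Top2a differed little. The sequences are from RefSeq on GRCm38.p6 (mm10), read 5′ to 3′ on the strand of the gene. Capitals mark TTTGAA or CCAAT on either strand (TTCAAA and ATTGG on the other).
Cdc20, minus strand, chr4:118437344-118437593: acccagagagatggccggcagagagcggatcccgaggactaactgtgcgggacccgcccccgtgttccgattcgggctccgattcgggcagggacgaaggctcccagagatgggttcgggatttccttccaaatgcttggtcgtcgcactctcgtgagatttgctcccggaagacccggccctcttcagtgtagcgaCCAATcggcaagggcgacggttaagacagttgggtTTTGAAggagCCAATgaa
Plk1, plus strand, chr7:122159185-122159434: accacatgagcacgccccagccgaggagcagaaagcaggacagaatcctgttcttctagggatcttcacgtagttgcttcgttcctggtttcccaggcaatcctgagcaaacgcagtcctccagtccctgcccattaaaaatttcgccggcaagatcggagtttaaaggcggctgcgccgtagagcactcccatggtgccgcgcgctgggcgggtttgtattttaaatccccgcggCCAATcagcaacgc
Cenpn, plus strand, chr8:116921490-116921739: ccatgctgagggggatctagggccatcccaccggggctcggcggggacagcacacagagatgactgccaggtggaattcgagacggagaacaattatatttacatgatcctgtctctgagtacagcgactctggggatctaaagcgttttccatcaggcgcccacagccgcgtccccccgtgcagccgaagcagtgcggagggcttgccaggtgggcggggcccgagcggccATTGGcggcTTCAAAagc
Top2a, minus strand, chr11:99024190-99024439: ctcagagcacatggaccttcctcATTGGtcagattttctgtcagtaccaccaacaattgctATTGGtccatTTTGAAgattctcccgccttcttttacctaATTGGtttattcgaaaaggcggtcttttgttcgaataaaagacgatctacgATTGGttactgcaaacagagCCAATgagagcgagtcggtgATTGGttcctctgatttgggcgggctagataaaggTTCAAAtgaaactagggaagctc
Mki67, minus strand, chr7:135716380-135716629: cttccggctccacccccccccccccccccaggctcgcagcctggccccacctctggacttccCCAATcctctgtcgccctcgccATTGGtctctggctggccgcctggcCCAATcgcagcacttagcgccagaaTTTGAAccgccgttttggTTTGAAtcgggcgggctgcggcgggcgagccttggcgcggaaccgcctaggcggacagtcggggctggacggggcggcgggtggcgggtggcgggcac
Cenpe, plus strand, chr3:135212313-135212562: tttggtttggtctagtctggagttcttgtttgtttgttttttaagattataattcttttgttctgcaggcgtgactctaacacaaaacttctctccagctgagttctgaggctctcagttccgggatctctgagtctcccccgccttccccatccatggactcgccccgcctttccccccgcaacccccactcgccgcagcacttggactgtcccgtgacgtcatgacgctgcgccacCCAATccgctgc
In Cdc20, TTTGAA began 18 bases before the start, between CCAAT boxes that began 53 and 8 bases before it. Cenpn had TTCAAA 9 bases before the start, and its ATTGG began 18 bases before it. Top2a carried 6 CCAAT boxes, counting both strands, and Mki67 carried TTTGAA at 116 and 98 bases before the start. The Plk1 stretch held a CCAAT box only, since its TTTGAA began 31 bases past the start. Cenpe had a CCAAT box and no TTTGAA in the window.

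Promoter windows of 300 bases (250 before and 50 after the start) were found for 37 of the 44 genes, the others being Kif20a, Incenp, Smc4, Aurkb, Tpx2, Spc24 and Foxm1. TTTGAA or TTCAAA was present in 27 of the 37 windows (73%) and in 5466 of all 27025 gene windows (20.2%). CCAAT or ATTGG was present in 27 of the 37 (73%) and in 11096 of all windows (41.1%). The 6-letter and 5-letter motifs share no more than single letters at their ends, and these matches describe the letters and not binding. Both motif-bearing genes and the others had negative medians. The median log2 fold change (SUV-OE minus control) was -0.16 over the 27 genes with a CHR match and -0.32 over the 10 without one, and 19 and 8 of them had lower values in SUV-OE. The genes without a CHR match were Bub1, Mad2l1, Birc5, Cenph, Cenpk, Nuf2, Cenpe, Nusap1, Pttg1 and Ncaph.

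The introduced gene was present where the labels placed it. Suv39h1 (ENSMUSG00000039231) was at an FPKM of 12.4 in each control and reached 75.3 and 81.2 with SUV-OE. Kit, the receptor used for enrichment, was at 20.4 and 19.2 in the controls against 28.6 and 25.4 in SUV-OE, so the label had its marker in each library. Read totals recovered from the steps between FPKM values ranged from 16797809 to 19655316 per library. The 44 genes were measured with 232 to 12275 reads per library, which gives a counting error of 6.57% at the fewest reads, and 3 reads on 1 kb of exons correspond to an FPKM of 0.154 to 0.178.

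The comparison asks whether Suv39h1 overexpression went with another level of mitotic transcripts in leukemic c-Kit+ cells. Most of the 44 genes had slightly lower FPKM in SUV-OE, and none passed the test. The log2 fold change was negative for 32 genes (72.7%, against 53% of all genes tested) and positive for 12. Both SUV-OE libraries lay below both control libraries for 23 of the 44 (52.3%, against 28.4% of all genes), and above both for 3 genes, Cenpe, Smc4 and Mki67 (6.82%, against 25.4%). The median log2 fold change was -0.18 (quartiles -0.39 and 0.01), against -0.02 over all genes tested, and every one of the 44 lay between -0.52 (Cenph) and 0.33 (Cenpe).

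Fold changes are differences of log2(FPKM + 1), which slightly understate changes at low FPKM, and they were tested with limma, with Benjamini-Hochberg adjustment over all 13736 genes. With the adjusted p-value under 0.05 and the log2 fold change at least 1 in size, 0 of the 44 genes were called, against 168 of all genes (1.22%). At any fold, limma again called 0 of the 44, against 1.29% of all genes, and the smallest adjusted p-value was 0.104, for Cenph. An unadjusted p-value under 0.05 was reached by 10 of the 44 (22.7%, against 20.7% of all genes), namely Cenph, Cenpn, Ttk, Aurka, Nuf2, Bub3, Birc5, Pttg1, Kif2c and Kif20a. All 10 were lower in SUV-OE, where the share over all genes was 10.4%. The count was 0 without SUV-OE replicate 2, 1 without SUV-OE replicate 3, 13 without control replicate 3 and 16 without control replicate 4, beside 1146, 1263, 3156 and 3895 of all genes. On the recovered reads, limma-voom likewise called 0 of the 44 (against 6.4% of all genes), with 10 at an unadjusted p-value under 0.05 (22.7%, against 24.6%) and a smallest adjusted p-value of 0.0702, for Ttk. Among the 7756 genes in the FPKM range of the 44, the test called 102 (1.32%), and the smallest absolute log2 fold change called there was 0.93. The largest of the 44 was 0.52 in size.

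**Figure D1:**
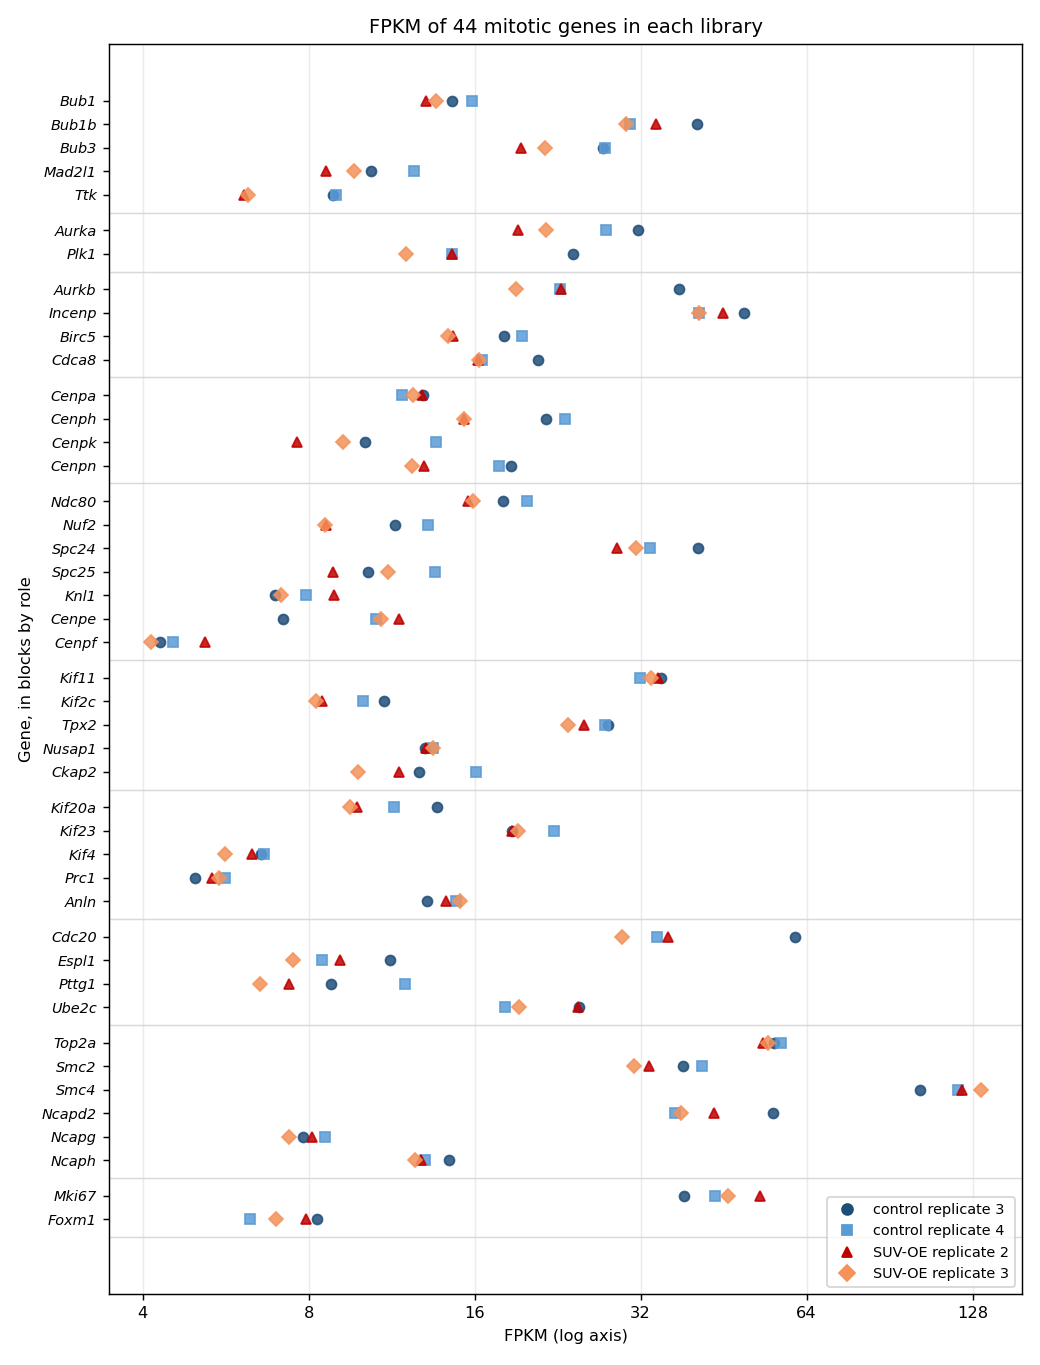
FPKM (log axis) of each of the 44 genes in each of the 4 libraries, in blocks by role; blue circles and squares are control replicates 3 and 4, red triangles and orange diamonds are SUV-OE replicates 2 and 3. The red and orange symbols lie left of both blue ones for 23 genes, and control replicate 3 stands far to the right for Cdc20, Plk1, Aurkb and Ncapd2.

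The list as a whole sat slightly lower in both SUV-OE libraries. With each gene set against its own mean on the log2 scale, the median of the 44 was 0.095 and 0.060 in control replicates 3 and 4, and -0.073 and -0.11 in SUV-OE replicates 2 and 3. The median absolute difference between the control libraries was 0.18 over the 44 and 0.22 over all genes, that between the SUV-OE libraries was 0.11 and 0.13, and the median absolute fold change was 0.22 in both. The fold change was larger than the gene's own difference between controls for 20 of the 44. The share over all genes is not given for this count, so it describes the 44 only.

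The 5 genes of the spindle assembly checkpoint all had negative fold changes, with a median of -0.29. Ttk, the MPS1 kinase that starts checkpoint signalling, had an FPKM of 8.87 and 8.95 in the controls against 6.12 and 6.20 in SUV-OE, so the groups did not overlap and replicates nearly coincided. Its log2 fold change was -0.47 (SE 0.11, limma adjusted p = 0.124). Bub3, the adaptor that brings BUB1 and BUBR1 to kinetochores, was at 27.3 and 27.5 in the controls against 19.4 and 21.5 in SUV-OE, again without overlap, with a log2 fold change of -0.41 (SE 0.11). Mad2l1 encodes MAD2, which captures CDC20, and Bub1 encodes a kinase that docks checkpoint proteins. Mad2l1 and Bub1 had smaller log2 fold changes of -0.29 and -0.17, without overlap of the groups. Bub1b, which encodes the CDC20 inhibitor BUBR1, was at 40.4 and 30.6 in the controls against 34.1 and 30.1 in SUV-OE. Its groups overlapped, and its log2 fold change of -0.13 was the one nearest zero in the checkpoint group.

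The kinases Aurka and Plk1 had lower means in SUV-OE, but not with equal spread. Aurka, the kinase of spindle poles, had an FPKM of 31.6 and 27.7 in the controls against 19.2 and 21.5 in SUV-OE, with a log2 fold change of -0.52 (SE 0.13, limma adjusted p = 0.139). The groups of Aurka were clearly apart. Plk1, which drives mitotic entry and centrosome maturation, was at 24.2 and 14.6 in the controls against 14.6 and 12.0 in SUV-OE, with a log2 fold change of -0.48 (SE 0.26, limma adjusted p = 0.370). Control replicate 4 and SUV-OE replicate 2 had nearly the same Plk1 level, and control replicate 3 alone was high. Without control replicate 3 the log2 fold change of Plk1 was -0.13, and without control replicate 4 it was -0.82.

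The chromosomal passenger complex, which corrects faulty attachments, had a median log2 fold change of -0.27 over its 4 genes. Its kinase gene Aurkb was at 37.6 and 22.8 in the controls against 22.9 and 19.0 in SUV-OE, the pattern of Plk1. The groups of Aurkb overlapped, its log2 fold change was -0.47 (SE 0.26, limma adjusted p = 0.378), and it was -0.12 without control replicate 3. Incenp, the scaffold of the complex, was at 49.2 and 40.8 in the controls against 45.1 and 40.8 in SUV-OE, with a log2 fold change of -0.06. Birc5 (survivin) and Cdca8 (borealin), which bring the complex to centromeres, had log2 fold changes of -0.35 and -0.18. In both of these the SUV-OE libraries lay below the controls, for Cdca8 by little, at 16.2 and 16.3 against 16.5 in control replicate 4.

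Of the 4 centromere and inner kinetochore genes, 3 had among the most negative values of the list and Cenpa did not. Cenph (ENSMUSG00000045273, chr13:100759674-100775899 in mm10) was measured at an FPKM of 21.6 and 23.3 in the controls against 15.3 in both SUV-OE libraries, with a log2 fold change of -0.52 (SE 0.11, limma adjusted p = 0.104). Cenpn, whose product reads the CENP-A nucleosome, was at 18.6 and 17.7 in the controls against 13.0 and 12.3 in SUV-OE, with a log2 fold change of -0.49. Cenpk, which encodes a partner of CENP-H, had a log2 fold change of -0.44, which was -0.64 without control replicate 3 and -0.245 without control replicate 4. The groups of Cenph, Cenpn and Cenpk did not overlap. Cenpa, the histone H3 variant of the centromere, was at 12.9 and 11.8 in the controls against 12.8 and 12.4 in SUV-OE. Its groups overlapped, with a log2 fold change of 0.03 (95% interval -0.26 to 0.32).

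The outer kinetochore and corona genes held both directions. All 4 genes of the NDC80 complex had negative fold changes. Nuf2 was the lowest, with an FPKM of 11.5 and 13.2 in the controls against 8.60 and 8.57 in SUV-OE, and a log2 fold change of -0.47 (SE 0.12, limma adjusted p = 0.142). Spc24, Ndc80 and Spc25 had log2 fold changes of -0.28, -0.25 and -0.23, and the groups of Spc25 overlapped. Without control replicate 3 the log2 fold change of Spc24 was -0.14, and without control replicate 4 that of Spc25 was -0.04. Cenpe, a large kinesin of the corona that carries chromosomes to the spindle equator (ENSMUSG00000045328, chr3:135212537-135273611 in mm10), had the most positive value of the list. Its FPKM was 7.17 and 10.6 in the controls against 11.7 and 10.8 in SUV-OE, with a log2 fold change of 0.33 (SE 0.20, limma adjusted p = 0.403). The SUV-OE libraries lay only just above control replicate 4, and the log2 fold change of Cenpe was 0.08 without control replicate 3 and 0.58 without control replicate 4. Knl1, the platform for BUB proteins, and Cenpf, another corona protein, had log2 fold changes of 0.09 and 0.06 with overlapping groups.

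Spindle assembly genes had a median log2 fold change of -0.18. Ckap2, a microtubule-associated protein of the spindle, was lowest, at 12.7 and 16.1 in the controls against 11.7 and 9.84 in SUV-OE, with a log2 fold change of -0.38 (SE 0.16). Its groups did not overlap, but control replicate 3 and SUV-OE replicate 2 were close. Kif2c (MCAK), a kinesin that shortens microtubules, and Tpx2, the activator of Aurora A, had log2 fold changes of -0.30 and -0.18 without overlap. Kif11, the motor that pushes the spindle poles apart, was at 34.8 and 31.9 in the controls against 34.4 and 33.5 in SUV-OE, with a log2 fold change of 0.02 (95% interval -0.27 to 0.32). Nusap1, which bundles spindle microtubules, had a log2 fold change of 0.01.

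The central spindle and cytokinesis genes were close to zero apart from Kif20a. Kif20a (MKLP2), the motor that moves the passenger complex to the midzone, was at 13.7 and 11.4 in the controls against 9.783 and 9.498 in SUV-OE, with a log2 fold change of -0.34 (SE 0.13). Of the exon bases of Kif20a, 29.3% lie opposite exons of Cdc23, and the library kit did not mark strand, so reads of both genes can mix there. Kif4 and Kif23, both motors of the midzone, had log2 fold changes of -0.12 and -0.10. Prc1, which crosslinks midzone microtubules, was at 0.03. Anln, the contractile ring protein anillin, was at 13.1 and 14.8 in the controls against 14.2 and 15.1 in SUV-OE, with a log2 fold change of 0.07 and overlapping groups.

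Among the 4 genes of anaphase onset and mitotic exit, the control libraries differed widely from each other. Pttg1 (securin), the inhibitor of separase, had the lowest fold change, with an FPKM of 8.79 and 11.9 in the controls against 7.38 and 6.53 in SUV-OE and a log2 fold change of -0.50 (SE 0.17, limma adjusted p = 0.213). The groups of Pttg1 did not overlap. Cdc20 was at 60.9 and 34.3 in the controls against 35.8 and 29.5 in SUV-OE, with a log2 fold change of -0.48 (SE 0.29, limma adjusted p = 0.419), and only control replicate 3 was high. Without control replicate 3 the log2 fold change of Cdc20 was -0.07. Espl1 (separase) had a log2 fold change of -0.21 with overlapping groups. Ube2c, the ubiquitin-conjugating enzyme of the anaphase-promoting complex, was at 24.8 and 18.2 in the controls against 24.6 and 19.3 in SUV-OE, with a log2 fold change of 0.04. Exons of Tnnc2 lie opposite 22.8% of the exon bases of Ube2c.

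Chromosome condensation genes, which include the highest FPKM of the list (Smc4), had a median log2 fold change of -0.09. Top2a, the topoisomerase that untangles sister chromatids, was at 55.7 and 57.6 in the controls against 53.4 and 54.4 in SUV-OE. Its groups did not overlap, but were close, with a log2 fold change of -0.07 (95% interval -0.37 to 0.23). The condensin ATPases, which work as a pair, differed in direction. Smc2 had an FPKM of 38.2 and 41.4 in the controls against 33.1 and 31.2 in SUV-OE, with a log2 fold change of -0.30 (SE 0.12). Smc4 was at 102.9 and 120.3 in the controls against 122.4 and 132.5 in SUV-OE, with a log2 fold change of 0.19 (SE 0.15), and it was 0.08 without control replicate 3 and 0.305 without control replicate 4. Neither passed the test, and the FPKM ratio of Smc4 to Smc2 was 2.70 and 2.90 in the controls against 3.70 and 4.25 in SUV-OE. Of the condensin I subunits, Ncapd2, Ncaph and Ncapg had log2 fold changes of -0.16, -0.11 and -0.07, and the log2 fold change of Ncapd2 was 0.13 without control replicate 3.

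The proliferation marker Mki67 and the regulator Foxm1 had positive fold changes. Mki67 (ENSMUSG00000031004, chr7:135689784-135716361 in mm10), which encodes the Ki-67 protein that coats mitotic chromosomes, had an FPKM of 38.4 and 43.7 in the controls against 52.7 and 46.0 in SUV-OE. Both SUV-OE libraries lay above both controls, with a log2 fold change of 0.26 (SE 0.14, limma adjusted p = 0.364). Foxm1, the transcription factor that activates many of the genes here, was at 8.30 and 6.26 in the controls against 7.90 and 6.98 in SUV-OE. Its groups overlapped and its log2 fold change was 0.04 (95% interval -0.40 to 0.47). The FPKM ratio of Mki67 to Top2a, both widely used to mark cycling cells, was 0.688 and 0.758 in the controls against 0.986 and 0.845 in SUV-OE.

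**Figure D2:**
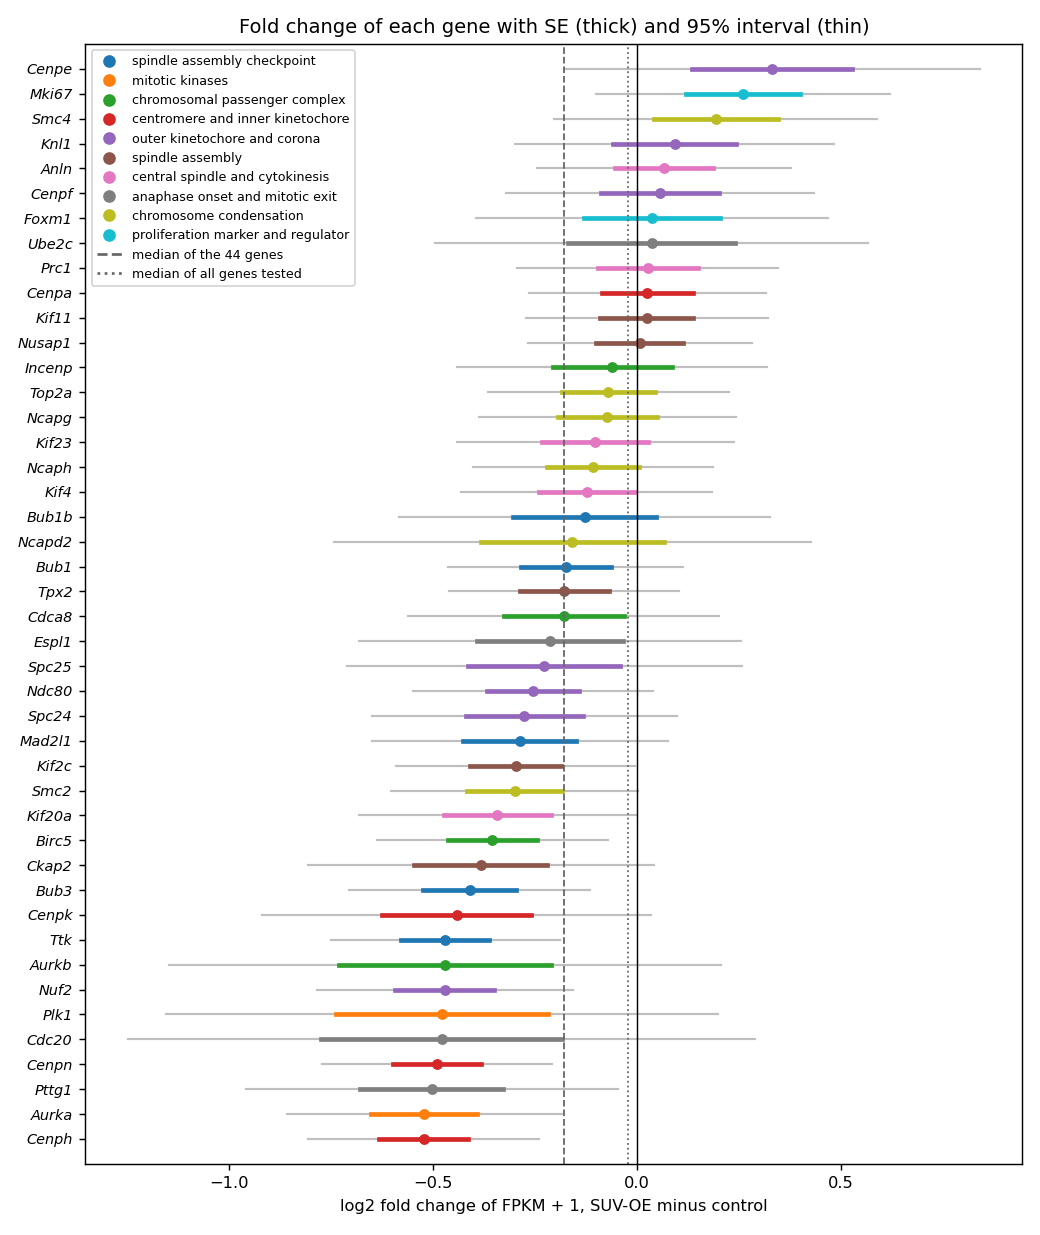
Log2 fold change of FPKM + 1 (SUV-OE minus control) of each of the 44 genes, sorted, with its SE (thick line) and 95% interval from limma (thin line), coloured by role; the dashed line is the median of the 44 (-0.18) and the dotted line that of all genes tested (-0.02). Cenph is lowest at -0.52 and Cenpe highest at 0.33, and the widest intervals are those of Cdc20, Plk1 and Aurkb.

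Control replicate 3 stood apart in several well-known mitotic genes. The control libraries differed by over 0.5 on the log2 scale in 5 of the 44 genes, with replicate 3 higher by 0.81 in Cdc20, 0.69 in Plk1, 0.69 in Aurkb and 0.58 in Ncapd2, and lower in Cenpe (difference -0.50). Over the 44 genes, the difference between the control libraries increased with the GC content of the transcript, with a Spearman rho of 0.80. The same rho was 0.51 over 105 other mitotic genes of the lists below and 0.34 over 13692 genes. All of these points come from the same pair of libraries, and rho is given as a description. With the GC trend of all genes removed from each library, the log2 fold change of Cdc20 was -0.45, of Plk1 -0.45, of Aurkb -0.43 and of Cenpe 0.34. The median of the 44 was then -0.19, against -0.006 over all genes. In that fit 22 of the 44 had both SUV-OE libraries below both controls, a count given without its share over all genes.

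**Figure D3:**
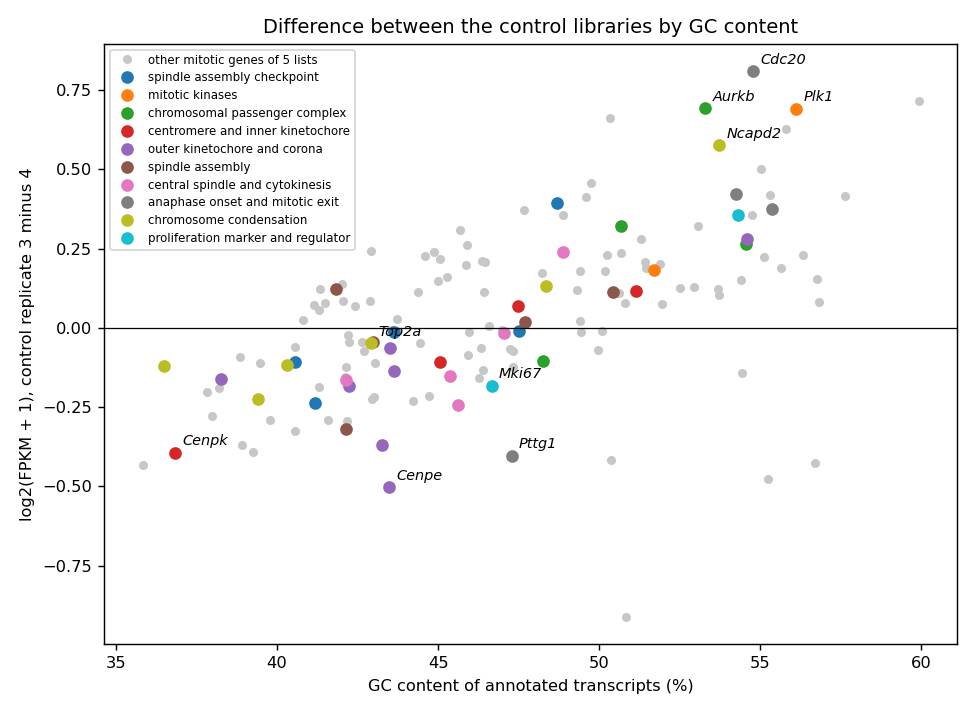
Difference between control replicates 3 and 4 in log2(FPKM + 1) (vertical axis) against the GC content of the annotated transcripts in percent (horizontal axis), for the 44 genes coloured by role and 105 other mitotic genes in grey. Cdc20, Plk1, Aurkb and Ncapd2 lie high at the GC-rich side, and the rho over the 44 is 0.80.

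The fold changes tended to be lower in genes of short exon length. Length here is the one used in the FPKM. For 78.5% of all genes it was the exon bases of all annotated transcripts joined, so it is not the length of a single transcript. Over the 44 genes, the Spearman rho between log2 fold change and length was 0.61 (Pearson r 0.62), against 0.43 over the 105 other mitotic genes and 0.07 over 13691 genes, all from the same 4 libraries. Of the 12 mitotic genes under 3000 bases, 11 had lower values in SUV-OE and 9 lay below both controls (75%, against 29.7% of all genes of that length), with a median of -0.47. Among them were Aurka, Cenph, Cenpn, Cenpk, Pttg1 and Cdc20. Of the 20 genes from 3000 bases to just under 6000, 14 were lower and 10 lay below both controls (50%, against 30.5%), with a median of -0.13. Of the 12 genes of 6000 bases or more, 7 were lower and 4 lay below both controls (33.3%, against 22.1%), with a median of -0.07, and Cenpe and Mki67 were the ones above both controls. The medians over all genes of these lengths were -0.06, -0.03 and 0.04. Length moved with role here, since the inner kinetochore genes with low values have short exon lengths and the corona genes long ones. Nuf2, Bub3 and Mad2l1 went the other way, with lengths of 6341, 7006 and 8390 bases and log2 fold changes of -0.47, -0.41 and -0.29. Ube2c, at 2600 bases, had 0.04. The rho stayed between 0.43 (without control replicate 3) and 0.61 in the other fits tried, and was 0.48 after the length trend of all genes was removed from each library.

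**Figure D4:**
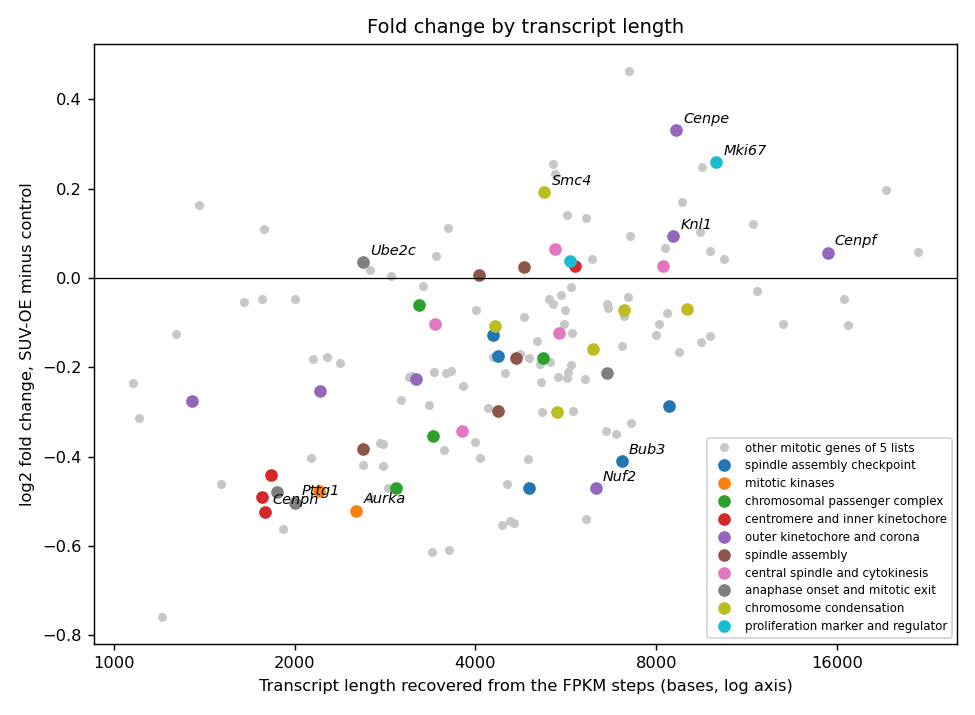
Log2 fold change (SUV-OE minus control, vertical axis) against the exon length used in the FPKM, in bases (horizontal log axis). The 44 genes are coloured by role and 105 other mitotic genes are in grey. Genes of short exon length such as Cenph, Pttg1 and Aurka lie near -0.50, and the long Cenpe and Mki67 lie above 0. Nuf2 and Bub3 are long and lie low, and Ube2c is short and lies near 0.

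Ratios between genes do not depend on the scaling of a library. The FPKM ratio of Cenpe to Cenph was 0.332 and 0.454 in the controls against 0.763 and 0.707 in SUV-OE. The ratio of Nuf2 to Ndc80, which encode a heterodimer, was 0.636 and 0.660 in the controls against 0.552 and 0.540 in SUV-OE. The ratio of Spc25 to Spc24 overlapped between the groups, at 0.253 and 0.407 in the controls against 0.304 and 0.355 in SUV-OE. These pairs were chosen after their values were seen, and they show unequal levels and not which partner changed.

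Other genes of the same pathways, from lists of known subunits, were read from the same fit, in which limma gave 0 of the 158 genes of these 7 lists an adjusted p-value under 0.05 (against 1.29% of all genes). An unadjusted p-value under 0.05 (20.7% of all genes) was reached by 11 of 34 other kinetochore and checkpoint genes, 5 of 32 other spindle and centrosome genes, 2 of 17 genes of the anaphase-promoting complex, 3 of 16 cohesin and condensin genes, 0 of 6 MuvB and B-Myb genes, 17 of 36 DNA replication genes and 4 of 17 cyclin and CDK genes. On the recovered reads, limma-voom gave 4 of the 158 genes one (2.53%, against 6.4% of all genes), all lower in SUV-OE, namely Cenpm (adjusted p = 0.0330), Trip13 (0.0401), Gmnn (0.0380) and Ccne1 (0.0365). Of 34 other kinetochore and checkpoint genes, 32 were lower in SUV-OE and 24 without overlap (70.6%, against 28.4% of all genes), with a median log2 fold change of -0.24. The smallest p-value was that of Cenpm, an inner kinetochore subunit, at 27.6 and 26.1 in the controls against 14.8 and 16.2 in SUV-OE, with a log2 fold change of -0.76 (SE 0.11, limma adjusted p = 0.0648). The groups of Cenpm were far apart compared with their spread. Of 32 other spindle and centrosome genes, 22 were lower and 9 without overlap (28.1%), with a median of -0.09. The centrosome kinase gene Nek2 had the smallest p-value there, with a log2 fold change of -0.46, while Numa1, which anchors spindle poles and was named after its values were seen, had 0.46. Of 17 genes of the anaphase-promoting complex, 15 were lower and 6 without overlap (35.3%), with a median of -0.19, and Anapc5 had the smallest p-value (log2 fold change -0.54).

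Cohesin and other condensin genes were divided. Of 16 tested, 7 lay below both controls (43.8%, against 28.4% of all genes) and 6 above both (37.5%, against 25.4%), with a median of -0.07, and Esco1, an acetyltransferase of cohesin, had the smallest p-value (log2 fold change -0.54). Of the 6 MuvB and B-Myb genes, 4 lay below both controls (66.7%), with a median of -0.17, and Lin54, the CHR-binding subunit, had a log2 fold change of -0.30 with the smallest p-value. The DNA replication list and the cyclin and CDK list, which spans G1 to M phase, had more negative medians than the 44. All 36 DNA replication genes were lower, 31 without overlap (86.1%), with a median of -0.40, and Gmnn, the inhibitor of origin licensing, had the smallest p-value (log2 fold change -0.67, limma adjusted p = 0.0967). Of 17 cyclin and CDK genes, 15 were lower and 14 without overlap (82.4%), with a median of -0.34, and Ccne1 (cyclin E1) had the smallest p-value (log2 fold change -0.71, limma adjusted p = 0.0692). Lists are compared by counts and medians only, and the differences between lists were not tested.

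**Figure D5:**
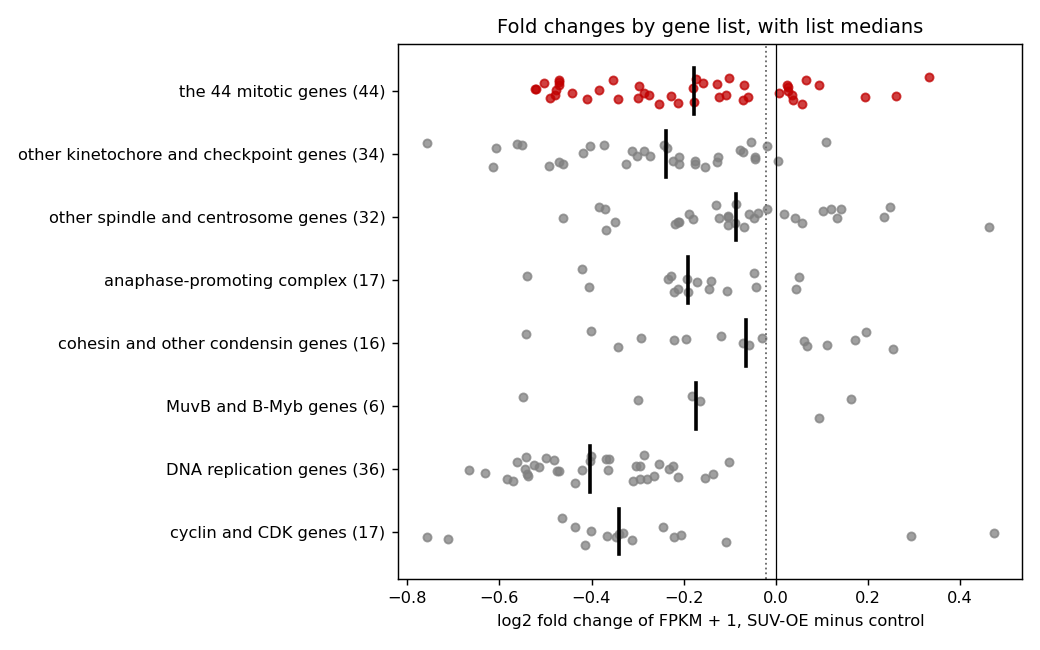
Log2 fold change (SUV-OE minus control) of each gene of the 44 (red) and of the 7 other lists (grey), with the number of genes tested in brackets, the list median as a black bar and the median of all genes (-0.02) as a dotted line. The medians lie between -0.07 for cohesin and other condensin genes and -0.40 for DNA replication genes, with the 44 at -0.18.

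Markers of other marrow cells moved alongside these values. All 9 progenitor genes were present in every library, 3 below (33.3%, against 28.4% of all genes) and 2 above both controls (22.2%, against 25.4%) in SUV-OE. Their summed FPKM, most of it from Elane, was 2307 and 2248 in the controls against 2069 and 2539 in SUV-OE. Flt3, a receptor of early progenitors, had the smallest p-value there, at 10.3 and 9.08 in the controls against 6.20 and 4.18 in SUV-OE, with a log2 fold change of -0.81 (adjusted p = 0.133 with limma and 0.0424 with limma-voom). All 10 late neutrophil genes lay above both controls in SUV-OE (against the same 25.4%, which also applies to the lists that follow), and their summed FPKM was 754.3 and 2392 in the controls against 6658 and 8106 in SUV-OE, with Ltf called (limma adjusted p = 0.0434). B-lymphoid genes lay above both controls for 8 of 9 tested, with sums of 21.1 and 29.4 in the controls against 40.8 and 92.8 in SUV-OE. Ms4a1 was at 0 in control replicate 3. Erythroid genes lay above both controls for 5 of 10, with sums of 21.5 and 143.0 in the controls against 147.5 and 118.8 in SUV-OE, and limma called Car1 and Car2 there (adjusted p = 0.0280 and 0.0214). Monocyte and macrophage genes lay above both controls for 7 of 8, although their sums, 368.0 and 656.3 in the controls against 380.3 and 412.5 in SUV-OE, overlapped. Megakaryocyte genes did so for 3 of 4 tested, with sums of 6.62 and 12.9 in the controls against 23.9 and 28.4 in SUV-OE. Mast cell, basophil and eosinophil genes did so for 4 of 7 tested, with sums of 106.7 and 162.3 in the controls against 261.2 and 209.6 in SUV-OE, and Fcer1a was at 0 in both controls. Of the T and NK cell genes only Lck and Nkg7 passed the filter, both with lower means in SUV-OE, and Cd3e, Cd3g and Ncr1 were at 0 in control replicate 3, Ncr1 and Trac in control replicate 4 and Trac in SUV-OE replicate 2. The T and NK sums were 75.2 and 114.2 in the controls against 77.2 and 84.2 in SUV-OE. Of the endothelial genes only Pecam1, which leukocytes also express, passed the filter, at 16.7 and 23.3 in the controls against 70.3 and 64.1 in SUV-OE (limma adjusted p = 0.0405), and Tek and Emcn were at 0 in control replicate 3. The endothelial sums were 17.1 and 24.1 in the controls against 72.1 and 65.4 in SUV-OE. On the recovered reads, limma-voom called 25 of 66 genes over all marker lists (37.9%, against 6.4% of all genes), Flt3 as lower and 24 as higher in SUV-OE. They included 7 of 10 late neutrophil, 4 of 10 erythroid, 3 of 9 B-lymphoid, 3 of 8 monocyte and macrophage, 3 of 6 megakaryocyte, 2 of 7 mast cell, basophil and eosinophil and 2 of 5 endothelial genes, and 0 of 2 T and NK cell genes. The part of these cells in the lower values of the mitotic genes was not tested.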

How the data were processed

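RNA-Seq libraries of AML c-Kit+ cells (2 control, 2 SUV-OE) were made with the TruSeq RNA v2 kit, aligned to mm10 with TopHat2 and, per the paper's methods, summarised with Cufflinks. The table the authors deposited gives FPKM for 23552 genes in each library. The submitters' processing notes also name CASAVA 1.8. The authors called differential genes with DESeq2 on counts that were not used here. The 44 genes and all gene lists were chosen with earlier results of these data known.

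log2(FPKM + 1) was compared between groups with limma 3.58.1 in R 4.3.3 (intensity trend, group as the only term) over 13736 genes whose mean FPKM was 0.5 or more. Genes were called at a log2 fold change of 1 or more in size with an adjusted p-value (Benjamini-Hochberg) under 0.05. Both limma steps were tested on simulated data. No list was tested as a set. Whole reads were recovered from the FPKM steps within a tolerance of 0.01, for 18498 genes (78.5%) at the GENCODE M21 exon length and for 5001 at another length, while 53 genes were not recovered. Intervals for reads cover counting error only. Read totals were 19655316 and 17427288 in the controls against 16797809 and 17398571 in SUV-OE. The reads entered only limma-voom (mean of at least 10 reads), which called 680 genes. Symbols, exons and GC content came from GENCODE M21 (mm10), with 23438 IDs matched, and promoters from RefSeq.

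All 44 genes were named. In each role, the genes with the lowest and the highest fold change were given with their 4 values, as were Mki67, Top2a, Foxm1, Plk1, Aurkb and Cdc20. Of each of the 7 other pathway lists, the gene with the smallest p-value was named. Other genes, and the further values given, were chosen after the values were seen. The alternatives were a pseudocount of 0.1, median-of-ratios scaling, quantile normalization, no filter, a minimum mean FPKM of 1, no trend, a robust trend, limma-voom and each library left out. Removal of a GC or a length trend was added after the data were seen.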

Additional observations from a re-analysis of the deposited data

How the results depend on the processing

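With 2 libraries per group, limma called 0 of the 44 genes at an adjusted p-value under 0.05 in each of 14 alternatives, and the smallest adjusted p-value of any of them was 0.0702. Of the 616 log2 fold changes under the alternatives, 593 kept their direction and 23 did not. Leaving out a library moved the log2 fold change by over 1.5 times in 31 of the 44, and in none of Bub1, Bub3, Ttk, Aurka, Birc5, Cenph, Cenpn, Ndc80, Nuf2, Kif2c, Tpx2, Top2a and Smc2. The number of the 44 lower in SUV-OE was 32 to 36, where 48.3% to 55.3% of all genes were lower. Both SUV-OE libraries lay below both controls for 17 (quantile normalization) to 24 genes with all libraries in. With a library left out the count was 24 to 33, where fewer libraries have to be separated. The shares over all genes are not given for these counts without overlap, so they describe the 44 only. The median log2 fold change was -0.13 under quantile normalization, -0.21 to -0.13 with a library left out (-0.13 without control replicate 3), and -0.19 to -0.16 otherwise. Over all genes, 168 were called, against 0 without a filter (4177 of 23552 had an unadjusted p-value under 0.05), 680 by limma-voom (3485 unadjusted) and 0 to 0 when any library was left out (1146 to 3895 unadjusted), where the lone library was assumed to vary like the other group. The causes were not tested.

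Directions changed mostly in genes close to zero, and also in Ncapd2 and Bub1b, which had -0.16 and -0.13 in the main fit. Under quantile normalization the log2 fold change of Incenp was 0.085, of Top2a 0.10, of Cenpf -0.009 and of Prc1 -0.024. With the length trend removed, Cenpf was at -0.042 and Prc1 at -0.004. With a library left out, the range was -0.33 to 0.068 for Bub1b, -0.19 to 0.073 for Incenp, -0.031 to 0.084 for Cenpa, -0.05 to 0.23 for Knl1, -0.076 to 0.19 for Cenpf, -0.038 to 0.085 for Kif11, -0.016 to 0.03 for Nusap1, -0.22 to 0.019 for Kif23, -0.049 to 0.10 for Prc1, -0.017 to 0.15 for Anln, -0.18 to 0.25 for Ube2c, -0.45 to 0.13 for Ncapd2 and -0.14 to 0.21 for Foxm1. No paired analysis was possible. Control and SUV-OE libraries have just 1 replicate number, 3, in common, and the labels do not say that equal numbers mark a matched pair.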

Other observations

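Exons of 13 of the 44 genes overlap exons of another annotated gene, 2 of them over more than 20% of their bases. Beside Kif20a and Ube2c, the shares were 15.1% for Kif4 (opposite Pdzd11), 13.4% for Ncapg (opposite Lcorl) and 11.1% for Prc1 (opposite Rccd1). The FPKM ratio of Aurkb to Incenp was 0.763 and 0.560 in the controls against 0.508 and 0.466 in SUV-OE. Wee1, the kinase that holds CDK1 inactive, had a log2 fold change of -0.76 (FPKM of 48.7 and 33.7 in the controls against 23.1 and 24.1 in SUV-OE), and Cdk6 had 0.47 (99.4 and 92.8 in the controls against 153.8 and 116.4 in SUV-OE). Mybl2, which encodes B-MYB, was at 31.1 and 19.8 in the controls against 16.02 and 17.29 in SUV-OE, with a log2 fold change of -0.55. None of Wee1, Cdk6 and Mybl2 passed the test with limma (adjusted p = 0.148, 0.244 and 0.269), and all 3 were named after their values were seen.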
